A study of Mus musculus with 4 samples.

Results

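The matrix proteases and their inhibitors were followed as 50 genes in single cells of the mouse heart. They comprise every gene row whose symbol is Mmp, Adamts or Adamtsl followed by a number, and Timp1 to Timp4. These were 22 Mmp genes, 19 Adamts genes, 5 Adamtsl genes and 4 Timp genes out of 31053 gene rows. The hearts came from offspring at 6 weeks of age, whose dams ate either a diet high in resistant starch (high fibre) or a control diet low in it throughout pregnancy and lactation. All offspring moved to the same standard chow at weaning, at 3 weeks, so both groups had left the maternal diet for the remaining weeks. Hearts were perfused with dispase II at 1 mg/mL together with collagenase IV at 2 mg/mL, and live, metabolically active, nucleated cells were sorted before droplet sequencing. There were 2 high-fibre libraries and 2 control-diet libraries. The labels give no strain contrast or transgene, and do not say how many animals made a library or whether libraries came from separate animals, so p-values measure the spread between these libraries.

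Matrix metalloproteinases cut collagens, gelatin, elastin and other matrix proteins, and most are secreted as inactive precursors that other proteases switch on. The ADAMTS enzymes are secreted proteases that cut proteoglycans such as versican and aggrecan or trim procollagens, and the ADAMTS-like proteins share their matrix-binding domains but lack the protease. The TIMPs are small inhibitors that block the active site of these enzymes. In the heart this system turns over the matrix that fibroblasts lay down, and it is known for its part in remodelling after injury.

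The 4 libraries held 26765 barcodes, of which 22514 were kept as single cells. Kept cells had medians of 5832.5 and 6099 UMIs (unique transcript molecules) in the high-fibre libraries, and 7729 and 7459 in the control-diet libraries. Cells were sorted into 6 gates by raw UMIs of a few marker genes, none of them a protease or inhibitor studied here: Col1a1 with Dcn for fibroblasts, Cdh5 with Pecam1 for endothelial cells, C1qa for macrophages, Kcnj8 with Vtn for pericytes, Myh11 for smooth muscle and S100a8 for neutrophils. A level is given as CPM, the gene's UMIs per 1000000 UMIs of that gate in that library. The fibroblast gate held 1842 and 2257 cells in the high-fibre libraries and 1912 and 598 in the control-diet libraries, while the smooth muscle gate held 24 to 74 and the neutrophil gate 11 to 62 cells per library. Each gate carried the other markers of its cell type, for example a sum of 34543 to 37052 CPM for Lum, Pdgfra, Col3a1, Gsn and Tcf21 in the fibroblast gate against 182.5 to 1169 CPM in the other gates, highest in pericytes. The smooth muscle gate was the least clean. It carried the pericyte markers at 10295 to 14759 CPM, against 16635 to 17488 CPM in pericytes, and its first high-fibre library stood apart, with smooth muscle markers at 16942 CPM against 27951 to 32354 CPM in the other 3 libraries and endothelial markers at 2644 CPM against 864 to 1600 CPM. Cardiomyocyte markers were low, with a sum of 61.1 to 120.5 CPM over all kept cells, so heart muscle cells are hardly represented. Xist and Ddx3y were both present in every library, and no library stands for 1 sex, but their levels differed. Xist had 289.9 and 583 CPM in the high-fibre libraries and 736 and 442 CPM in the control-diet libraries. Ddx3y had 72.1 and 40.5 CPM in the high-fibre libraries and 28.8 and 43.2 CPM in the control-diet libraries. Libraries shared cell barcodes: 737 and 747 barcodes of the second control-diet library, 24.8% and 25.2% of its total, also occurred in the first and the second high-fibre library, where they held a median of 653 and 680 UMIs against 17913 and 17669 UMIs in the control-diet library. Likewise 463 (15.6%) occurred in the first control-diet library, with a median of 615 against 20041 UMIs. The 2 high-fibre libraries shared 733 barcodes. Shallower copies made up 734 and 721 of the kept cells in the high-fibre libraries and 450 and 106 in the control-diet libraries. The main results include them. In a setting chosen after the data were seen, the shallower copies of all shared barcodes were removed. Genes of at least 10 CPM were compared in their highest gate only. Their levels moved by -0.888% to 1.11% in the 4 larger gates. In smooth muscle the change ran from -16.9% (Adamtsl1) to 3.88% (Adamts14 and Mmp17), each in the first high-fibre library.

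Of the 50 genes, 3 had no UMI in any kept cell: Mmp1b, Mmp7 (matrilysin) and Mmp20 (the enamel protease). A count of 0 among 22514 cells allows a share of up to 0.0133% of cells with a UMI, counting error only. Another 7 had 1 to 30 UMIs (Mmp10, Mmp21, Mmp24, Mmp25, Adamts13, Adamts16 and Adamts18), which leaves their source unsettled at this depth. At the other end, 31 genes reached a mean of 10 CPM in at least 1 gate. The gate with the highest mean level was the fibroblast gate for 15 of these, the endothelial, pericyte and smooth muscle gates for 4 each, and the macrophage and neutrophil gates for 2 each. The heat map of mean levels by gate lays these 31 genes out.

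**Figure D1:**
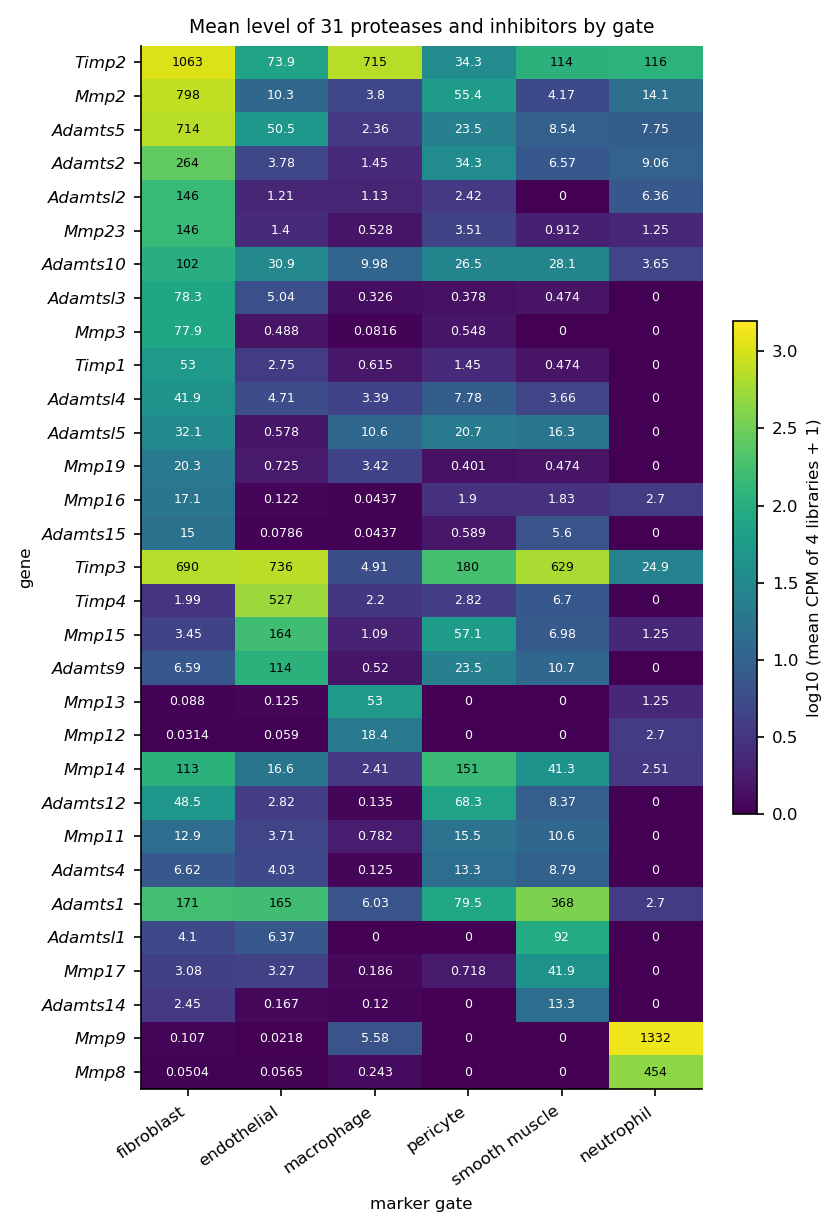
Mean CPM over the 4 libraries (printed in each cell, colour on a log10 scale) of the 31 genes with at least 10 CPM in a gate, in rows grouped by the gate with the highest level. Fibroblast-led genes fill the upper rows, with Timp2 also at 715 CPM in macrophages, and Mmp9 and Mmp8 stand at 1332 and 454 CPM in neutrophils.

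The source of each gene was tested by comparing the fitted log2 level of a gate with the mean of those of the other 5 gates, within libraries. The edgeR quasi-likelihood test was used, called at an adjusted p under 0.05 over all 13445 genes tested and a log2 fold of at least 1. Gates with almost no UMIs of a gene lower that mean of logs. The folds are therefore larger than a ratio to the average CPM of the other gates, and a called gate can lie below another gate. The low-count filter left 37 of the 50 genes in that test. In the fibroblast gate 27 of the 37 were called higher, where 22.8% of all tested genes were. The endothelial gate called 12 (19.4% of all tested genes), the pericyte gate 11 (17.4%), the smooth muscle gate 10 (14.5%), the macrophage gate 7 (22.7%) and the neutrophil gate 2 (13%). The second control-diet library, with 11 neutrophils, did not enter the neutrophil part of the test. Of the 37, 12 were called in a single gate, 19 in 2 gates and 6 in 3 or more. Without the first control-diet library the smooth muscle count was 6, with Adamts8, Adamts12, Adamtsl5 and Mmp11 no longer called there. Genes reached this test only if they had UMIs in some gate, so these counts describe where the tested genes were found.

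The gelatinases had separate sources. Mmp2, gelatinase A, which cuts denatured collagen and basement membrane, had 735 and 738 CPM in fibroblasts of the high-fibre libraries, against 869.6 and 850.1 CPM in those of the control-diet libraries. Pericytes, second in level, had 50.1 and 59.7 CPM of Mmp2 in the high-fibre libraries and 69.4 and 42.6 CPM in the control-diet libraries. That pericyte level, 6.94% of the fibroblast level by mean, is within the 0.385% to 28.1% that fibroblast markers reach in pericytes. The source test nevertheless called Mmp2 in pericytes (log2 fold 1.03 ± 0.18, SE). With a marker range this wide, whether pericytes are a source of their own is not settled. Fibroblasts held 97.1% of all Mmp2 UMIs, and their level was at least 12.4 times that of pericytes in every library. Mmp9, gelatinase B, stored in the granules of neutrophils, had 943 and 1354 CPM in neutrophils of the high-fibre libraries and 1654 and 1376 CPM in those of the control-diet libraries. Macrophages carried Mmp9 at 4.96 and 7.42 CPM in the high-fibre libraries and at 3.6 and 6.33 CPM in the control-diet libraries. Neutrophils held 64.2% of all Mmp9 UMIs and the more numerous macrophages 24.4%.

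The collagenases were found in neutrophils and macrophages. Mmp8, the neutrophil collagenase, had 341 and 288 CPM in neutrophils of the high-fibre libraries, against 746 and 441 CPM in those of the control-diet libraries. These values rest on 68 and 30 UMIs and on 69 and 17 UMIs, with 38.2% to 94.1% of them in the top 5 cells. The neutrophil check markers summed there to 45197 and 59573 CPM in the high-fibre libraries and 71596 and 72100 CPM in the control-diet libraries. Their part in the Mmp8 and Mmp9 values was not tested. Mmp13, the main interstitial collagenase of the mouse, had 40.1 and 36.8 CPM in macrophages of the high-fibre libraries, against 57.5 and 77.6 CPM in those of the control-diet libraries. Macrophages held 97.9% of all Mmp13 UMIs. Mmp12, the macrophage elastase, had 17.9 and 25.1 CPM in macrophages of the high-fibre libraries, and 28.6 and 2.11 CPM in those of the control-diet libraries. Few cells carried it: the 5 macrophages with the most Mmp12 held 44.4% and 60.5% of its UMIs in the high-fibre libraries, and 77% and 88.9% in the control-diet libraries, where the second had 9 UMIs of Mmp12 in all. Mmp13 was spread over more cells, with 12.5% to 27.8% of its UMIs in the top 5 macrophages.

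Mmp3, stromelysin, which cuts many matrix proteins and activates other metalloproteinases, had 97.6 and 61.2 CPM in fibroblasts of the high-fibre libraries and 44.1 and 109 CPM in those of the control-diet libraries. The 2 extremes of Mmp3 both came from the control-diet libraries. Its UMIs were concentrated too, with a UMI in 7.2% to 11.2% of fibroblasts and 22.6% to 46.8% of all fibroblast UMIs in the top 5 cells. Mmp27, a relative of the stromelysins, stayed low, with 2.86 and 2.66 CPM in fibroblasts of the high-fibre libraries and 1.52 and 2.3 CPM in those of the control-diet libraries, and 96% of its 198 UMIs were in fibroblasts. Mmp19 and Mmp23, 2 less studied metalloproteinases, also led in fibroblasts. For Mmp19 the levels there were 21.2 and 20.5 CPM in the high-fibre libraries and 18.8 and 20.6 CPM in the control-diet libraries. For Mmp23 they were 148 and 146 CPM in the high-fibre libraries and 152 and 138 CPM in the control-diet libraries.

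Mmp13, Mmp12, Mmp3, Mmp8 and Mmp27 are neighbours. They lie with Mmp1b, Mmp10, Mmp20 and Mmp7 in a run of 9 genes over 427.1 kb of chromosome 9 (GRCm38, chr9:7272514-7699585), yet they were read in different cells. Along the chromosome the order runs from Mmp13 and Mmp12, found in macrophages, through Mmp1b, which had no UMI, to Mmp3 in fibroblasts, then Mmp10 with 1 UMI, Mmp8 in neutrophils and Mmp27 in fibroblasts, and ends with Mmp20 and Mmp7, which had none. Mmp12 and Mmp1b overlap on opposite strands. The stretches of 250 bases upstream of the annotated starts of these 5 genes are shown because the genes were not all read in the same cells (RefSeq, GRCm38.p6, 5′ to 3′ on the gene's strand). The counts are per gene and do not show which start was used. Capitals mark 2 motifs searched on both strands: TGANTCA, the letters of an AP-1 element with any base allowed in the middle, and GAGGAAGT. GAGGAAGT has the letters of an ETS element of the PU.1 type and reads ACTTCCTC on the other strand.
Mmp13, chr9:7272264-7272513, + strand: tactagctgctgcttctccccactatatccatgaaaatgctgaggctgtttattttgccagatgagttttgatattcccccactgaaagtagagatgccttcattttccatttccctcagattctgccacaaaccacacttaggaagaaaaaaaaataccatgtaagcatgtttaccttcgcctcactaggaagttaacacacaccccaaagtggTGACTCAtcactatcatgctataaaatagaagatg
Mmp12, first start, chr9:7344147-7344396, + strand: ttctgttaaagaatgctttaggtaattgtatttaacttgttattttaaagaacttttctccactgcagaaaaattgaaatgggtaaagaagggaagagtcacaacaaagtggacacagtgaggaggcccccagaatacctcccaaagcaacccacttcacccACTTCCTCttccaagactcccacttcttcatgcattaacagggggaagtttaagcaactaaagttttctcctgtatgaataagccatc
Mmp12, second start, chr9:7347124-7347373, + strand: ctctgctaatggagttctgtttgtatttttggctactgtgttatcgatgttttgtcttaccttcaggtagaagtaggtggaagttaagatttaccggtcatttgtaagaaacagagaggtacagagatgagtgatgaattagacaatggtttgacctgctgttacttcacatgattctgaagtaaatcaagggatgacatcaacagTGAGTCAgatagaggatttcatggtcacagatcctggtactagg
Mmp3, chr9:7445572-7445821, + strand: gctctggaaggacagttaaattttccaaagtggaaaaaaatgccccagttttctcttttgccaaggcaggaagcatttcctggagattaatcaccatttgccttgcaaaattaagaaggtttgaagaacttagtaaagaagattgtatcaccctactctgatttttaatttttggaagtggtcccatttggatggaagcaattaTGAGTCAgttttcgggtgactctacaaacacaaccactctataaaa
Mmp8, chr9:7558179-7558428, + strand: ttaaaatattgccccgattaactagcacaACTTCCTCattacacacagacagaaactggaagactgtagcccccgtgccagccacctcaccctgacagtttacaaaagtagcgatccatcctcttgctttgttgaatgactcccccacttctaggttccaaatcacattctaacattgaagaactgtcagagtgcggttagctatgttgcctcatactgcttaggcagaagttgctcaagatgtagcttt
Mmp27, chr9:7571146-7571395, + strand: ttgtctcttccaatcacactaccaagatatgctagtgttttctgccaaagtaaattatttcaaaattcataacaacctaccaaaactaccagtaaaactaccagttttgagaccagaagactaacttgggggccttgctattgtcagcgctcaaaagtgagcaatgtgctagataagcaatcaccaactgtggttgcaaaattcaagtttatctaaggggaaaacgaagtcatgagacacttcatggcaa

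TGANTCA stood at -35 in Mmp13, at -46 in Mmp3 and at -44 in the window of the second start of Mmp12, counted from the annotated start. It was found in 7 of the 11 RefSeq upstream windows of this run of genes, covering 7 of its 9 genes, including Mmp1b, Mmp20 and Mmp7, which had no UMI, and Mmp10, which had 1. None of the 27 windows of the other matched proteases and inhibitors held it, and 6.75% of all 32851 RefSeq windows of the same length did. GAGGAAGT stood at -88 in the first Mmp12 window and at -221 in the Mmp8 window. It was also in 1 window of Mmp7, making 3 of 11 windows in the run, none of the other 27, and 2.44% of all windows. The Mmp27 window held neither, and the motifs overlapped in no window. In all, 35 of the 50 genes were matched to a RefSeq window. The TGANTCA match of Mmp20 read TGAATCA, and the others in the run read TGAGTCA or TGACTCA. A match gives letters in a window, not a bound site.

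**Figure D2:**
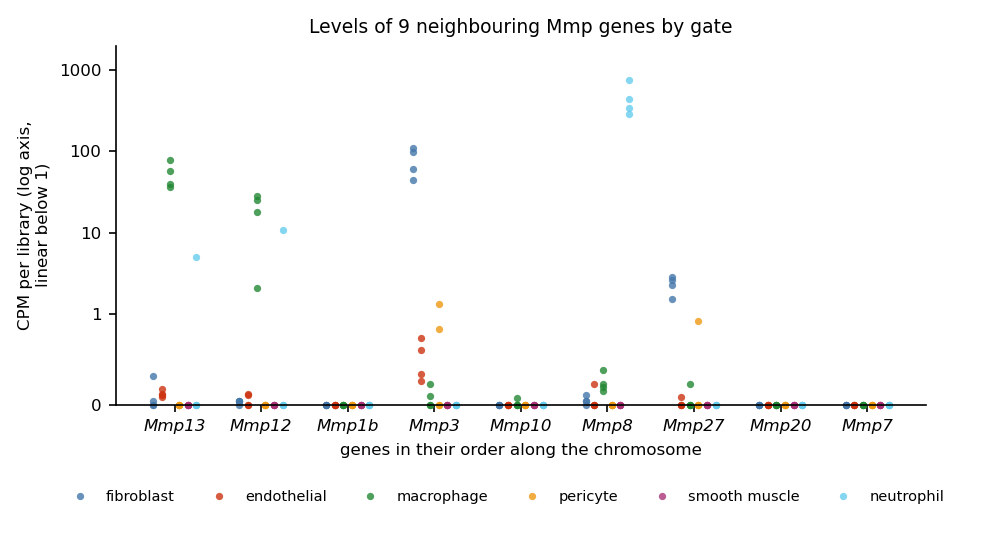
CPM per library (points, 4 per gate; log axis, linear below 1) of the 9 neighbouring Mmp genes, in chromosome order, coloured by gate. Macrophage points lead in Mmp13 and Mmp12, fibroblast points in Mmp3 and Mmp27 and neutrophil points in Mmp8, while Mmp1b, Mmp20 and Mmp7 lie at 0.

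The membrane-anchored metalloproteinases split between stromal and vascular cells. Mmp14, which sits on the cell surface and activates the precursor of Mmp2, had its highest level in pericytes, at 150.2 and 129 CPM in the high-fibre libraries and 191 and 135 CPM in the control-diet libraries. Fibroblasts followed with 114 and 90.6 CPM of Mmp14 in the high-fibre libraries and 137 and 112 CPM in the control-diet libraries. The pericyte level of Mmp14 was 1.21 to 1.42 times the fibroblast level within each library, though the ranges of the 2 gates overlap, and both gates were called (log2 fold 2.83 ± 0.20 for pericytes and 2.69 ± 0.16 for fibroblasts, SE). Pericytes held 5.97% of all Mmp14 UMIs and the more numerous fibroblasts 83.2%. Mmp15 was vascular, with 154 and 162 CPM in endothelial cells of the high-fibre libraries and 157 and 185 CPM in those of the control-diet libraries. Pericytes had 60.9 and 64.5 CPM of Mmp15 in the high-fibre libraries and 40.7 and 62.3 CPM in the control-diet libraries. That is a mean of 34.7% of the endothelial level, where the endothelial check markers reached at most 7.66% in pericytes. Mmp16 was a fibroblast gene, at 17.7 and 16.6 CPM in the high-fibre libraries and 17.8 and 16.4 CPM in the control-diet libraries, with 97.1% of its UMIs there. Mmp17, held to the membrane by a lipid anchor, had 28.8 and 39.8 CPM in smooth muscle of the high-fibre libraries and 43.8 and 55.2 CPM in that of the control-diet libraries, at least 8.37 times its level in endothelial cells. These Mmp17 values rest on 3 to 21 UMIs per library. Mmp25, known from neutrophils, had 12 UMIs in all, 3 of them in the neutrophil gate. Mmp11, another stromelysin, was low in several stromal gates and highest in pericytes, at 13.4 and 8.82 CPM in the high-fibre libraries and 18.5 and 21.3 CPM in the control-diet libraries. Fibroblasts had 10.4 and 12.4 CPM of Mmp11 in the high-fibre libraries and 14.6 and 14.3 CPM in the control-diet libraries. The pericyte and fibroblast ranges overlap. Mmp28 (epilysin) stayed at a mean of 2.99 ± 0.13 CPM (SD, n = 4) in endothelial cells, its highest gate.

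Among the ADAMTS proteases that cut proteoglycans, Adamts5, the main aggrecanase of mouse cartilage, had 748 and 715 CPM in fibroblasts of the high-fibre libraries and 735 and 659 CPM in those of the control-diet libraries. Endothelial cells had 51.5 and 53.4 CPM of Adamts5 in the high-fibre libraries and 45.6 and 51.6 CPM in the control-diet libraries. Fibroblasts thus stood at least 12.8 times higher in every library and held 94.7% of its UMIs. Adamts1, which also cuts versican and is a fast-responding gene in many cells, lies close to Adamts5 on chromosome 16 (chr16:85793827-85803113 and chr16:85856173-85901828) but had a wider source. In smooth muscle Adamts1 reached 462 and 329.9 CPM in the high-fibre libraries and 379 and 302 CPM in the control-diet libraries, 1.86 to 2.41 times the fibroblast level. Fibroblasts had 201 and 177 CPM of Adamts1 in the high-fibre libraries and 157 and 149.7 CPM in the control-diet libraries, and endothelial cells had 214 and 132 CPM in the high-fibre libraries and 168 and 146 CPM in the control-diet libraries. The fibroblast and endothelial ranges overlap, and all 3 gates were called for Adamts1. Adamts9, a versican-cutting protease, was endothelial, with 125 and 116 CPM in the high-fibre libraries and 113 and 103 CPM in the control-diet libraries, and pericytes came second at a mean of 20.6% of that level. Adamts15, with 96.9% of its UMIs in fibroblasts, had 16.4 and 14.7 CPM there in the high-fibre libraries and 15.5 and 13.3 CPM in the control-diet libraries. Smooth muscle was also called for Adamts15 (log2 fold 4.95 ± 1.03, SE), from 9 UMIs in all and at 37.4% of the fibroblast level by mean. Adamts4, the other classical aggrecanase, had 10 and 14.9 CPM in pericytes of the high-fibre libraries. In pericytes of the control-diet libraries it had 12.9 and 15.2 CPM, with 10 to 22 UMIs per library of either diet. Most of its 835 UMIs lay outside the pericyte gate. Fibroblasts had 6.77 and 3.49 CPM of Adamts4 in the high-fibre libraries and 11.8 and 4.4 CPM in the control-diet libraries. The pericyte and fibroblast ranges overlap, and both gates were called (log2 fold 3.47 ± 0.80 and 2.58 ± 0.81, SE). Adamts8 (220 UMIs) and Adamts20 (130 UMIs) stayed under 10 CPM in every gate by mean.

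The procollagen-trimming proteases were read mostly in fibroblasts. Adamts2, which removes the amino-terminal propeptide of fibrillar procollagens, had 257 and 236 CPM in fibroblasts of the high-fibre libraries and 283 and 278 CPM in those of the control-diet libraries, with 96.3% of its UMIs. Adamts3 (163 UMIs, 92.6% in fibroblasts) was low. Adamts14 had its highest mean, 13.3 ± 16.8 CPM (SD, n = 4), in smooth muscle, but from 4 and 4 UMIs in the high-fibre libraries and 1 and 1 in the control-diet libraries, and 71.8% of its 284 UMIs were in fibroblasts. Adamts12, which cuts cartilage oligomeric matrix protein, was a gene of pericytes and fibroblasts. Its pericyte level was 62.6 and 69.2 CPM in the high-fibre libraries and 82.3 and 59.3 CPM in the control-diet libraries, 1.15 to 1.66 times that of fibroblasts. In fibroblasts Adamts12 had 47 and 41.7 CPM in the high-fibre libraries and 53.4 and 51.7 CPM in the control-diet libraries. Adamts7, its closest relative, had 3.3 CPM or a little more by mean in fibroblasts, endothelial cells and pericytes alike. Of the fibrillin-associated proteases, Adamts10 had 93.7 and 95.8 CPM in fibroblasts of the high-fibre libraries and 104 and 116 CPM in those of the control-diet libraries. Every other gate but the neutrophil one carried Adamts10 at a mean of 9.98 to 30.9 CPM. Adamts19, linked to heart valve disease in humans, had a mean of 9.49 ± 1.43 CPM (SD, n = 4) in fibroblasts, which held 98.6% of its 762 UMIs. Adamts6 (562 UMIs) and Adamts17 (160 UMIs) were spread over several gates below 4 CPM by mean.

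The ADAMTS-like proteins, which bind microfibrils, had their highest level in fibroblasts with 1 exception. Adamtsl2, mutated in the human disease geleophysic dysplasia, had 128 and 139.7 CPM in fibroblasts of the high-fibre libraries and 129 and 188 CPM in those of the control-diet libraries. Adamtsl3 had 64.3 and 86.2 CPM there in the high-fibre libraries and 85.9 and 77 CPM in the control-diet libraries. Adamtsl4 had 36.7 and 41.2 CPM in fibroblasts of the high-fibre libraries and 40.8 and 49.1 CPM in those of the control-diet libraries. Fibroblasts held 97.9%, 95.3% and 88.5% of the UMIs of these 3 genes in that order. Adamtsl5 had 29.4 and 31 CPM in fibroblasts of the high-fibre libraries and 36.2 and 31.6 CPM in those of the control-diet libraries. By mean it reached 64.7% of that level in pericytes, 50.8% in smooth muscle and 33% in macrophages. Adamtsl5 was called in each of these gates as well as in fibroblasts. The exception, Adamtsl1, had 48.1 and 100.5 CPM in smooth muscle of the high-fibre libraries and 139 and 80.9 CPM in that of the control-diet libraries, from 5 to 53 UMIs. That was at least 8.24 times its endothelial level in every library. In endothelial cells Adamtsl1 had 1.97 and 12.2 CPM in the high-fibre libraries and 7.25 and 4.07 CPM in the control-diet libraries. The lymphatic markers Prox1, Lyve1 and Flt4 summed there to 65.5 and 226 CPM in the high-fibre libraries and 164 and 116 CPM in the control-diet libraries, and their part in the spread of Adamtsl1 was not tested. Adamtsl1 overlaps Sh3gl2 on the same strand, so reads of the 2 could be split between them.

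The 4 inhibitors had 4 different patterns. Timp1, the inducible inhibitor, had 65.5 and 40.9 CPM in fibroblasts of the high-fibre libraries and 58.1 and 47.5 CPM in those of the control-diet libraries. Fibroblasts held 91.5% of its UMIs, and their 5 strongest cells held 25.1% to 37.7% of the fibroblast UMIs. Timp2, which inhibits metalloproteinases and also helps Mmp14 to activate Mmp2, was shared by fibroblasts and macrophages. Its fibroblast level was 1037 and 1055 CPM in the high-fibre libraries and 1113 and 1044 CPM in the control-diet libraries. Its macrophage level was 694 and 730.3 CPM in the high-fibre libraries and 691 and 744 CPM in the control-diet libraries. Timp2 was thus 1.4 to 1.61 times higher in fibroblasts than in macrophages, without overlap, and both gates were called (log2 fold 3.13 ± 0.09 and 2.97 ± 0.09, SE). After thinning to 2000 UMIs per cell, 66.1% to 72.3% of macrophages had a UMI of Timp2 (89.4% to 92.2% unthinned). Mmp2, at a mean of 798 CPM in fibroblasts, was seen in 0.332% to 1.46% of the thinned macrophages. Timp3, which binds to the matrix itself, was shared by endothelial cells, fibroblasts and smooth muscle. Endothelial cells had 884 and 785 CPM of Timp3 in the high-fibre libraries and 662 and 613 CPM in the control-diet libraries. Fibroblasts had 779 and 669.8 CPM of Timp3 in the high-fibre libraries and 626 and 685 CPM in the control-diet libraries. In smooth muscle Timp3 reached 769 and 559 CPM in the high-fibre libraries and 609 and 577 CPM in the control-diet libraries. These 3 ranges overlap, and the order of the 3 gates is not settled. Pericytes lay below all 3 for Timp3, with 234 and 197 CPM in the high-fibre libraries and 154 and 135 CPM in the control-diet libraries. Timp4, an inhibitor known for its enrichment in the heart relative to other tissues, was read mainly in endothelial cells, with 716 and 577 CPM in the high-fibre libraries and 387 and 427 CPM in the control-diet libraries. Fibroblasts had 1.91 and 2.09 CPM of Timp4 in the high-fibre libraries and 1.96 and 1.99 CPM in the control-diet libraries, and 91% of all Timp4 UMIs were in endothelial cells. Of the rest, 7.17% were in cells of no gate, where endothelial markers were also present. Timp1, Timp3 and Timp4 overlap genes of the synapsin family on the opposite strand (Syn1, Syn3 and Syn2), and Timp2 overlaps Cep295nl on the same strand. Adamts4, Adamts7, Adamts9, Mmp11, Mmp19, Mmp24 and Mmp28 also overlap a gene on the opposite strand. The strand setting of the counting is not given in the sources used here. Whether reads of the opposite-strand pairs were told apart is therefore not known. Reads of Timp2 and Cep295nl, on the same strand, could be split between them.

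**Figure D3:**
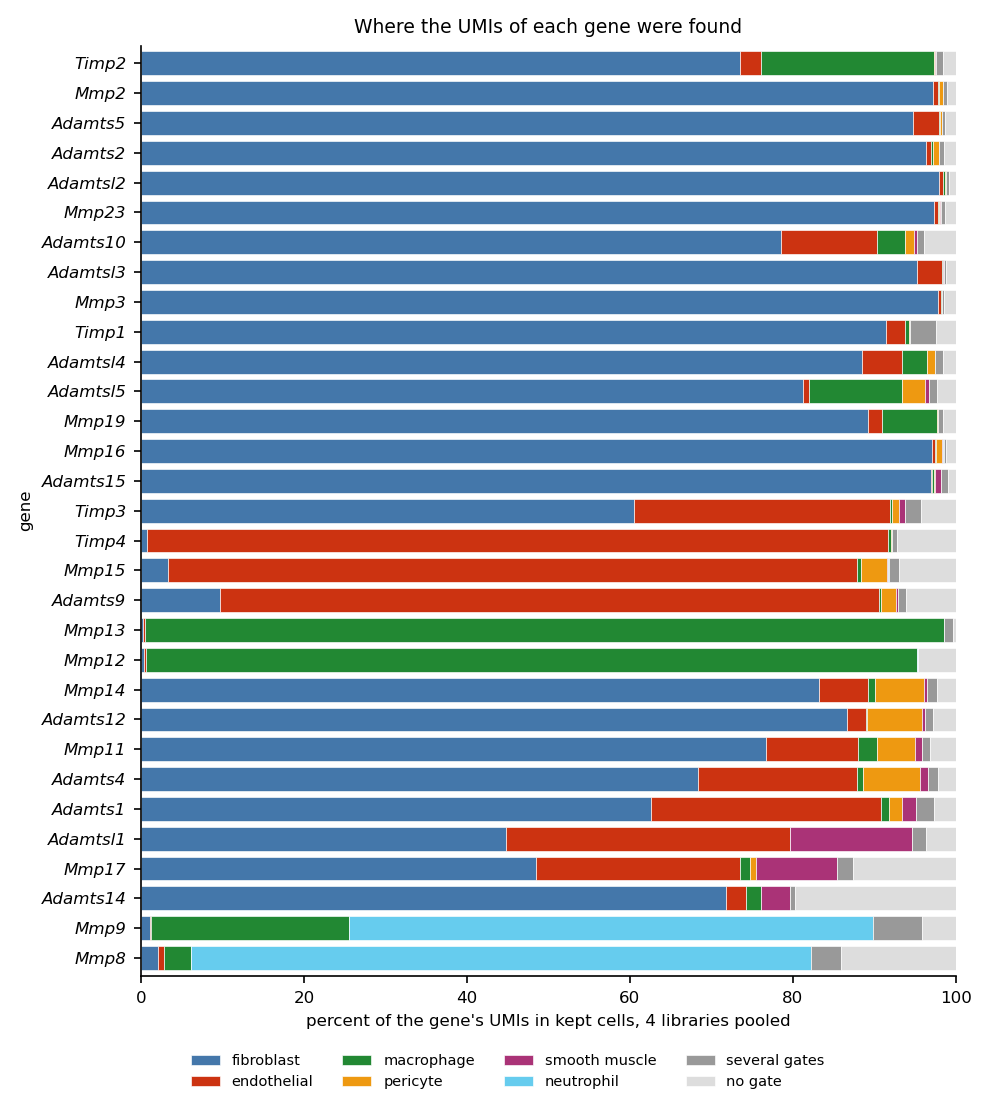
Share of each gene's UMIs (4 libraries pooled, kept cells) by gate for the 31 genes of the heat map, in the same order. Fibroblasts hold most UMIs even of genes whose highest level lies elsewhere, such as Mmp14 (83.2%) and Adamts1 (62.5%), whereas Timp4 (91%), Mmp13 (97.9%) and Mmp9 (64.2% in neutrophils) come mainly from their leading gate.

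Summed over families, each family had its own profile over the gates. The Mmp sum in fibroblasts was 1154 and 1096 CPM in the high-fibre libraries and 1264 and 1273 CPM in the control-diet libraries. Neutrophils, through Mmp9 and Mmp8, had an Mmp sum of 1345 to 2443 CPM, and endothelial cells one of 186 to 223 CPM. The Timp sum in endothelial cells was 1657 and 1452 CPM in the high-fibre libraries and 1144 and 1104 CPM in the control-diet libraries. In fibroblasts the Timp sum was 1884 and 1768 CPM in the high-fibre libraries and 1799 and 1779 CPM in the control-diet libraries. The endothelial Timp sums of the diets did not overlap, while the lowest and the highest macrophage sums, 697 and 748 CPM and nearly all Timp2, both came from the control-diet libraries. These sums count transcripts, not enzyme or inhibitor protein.

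Low levels in a second gate were set beside the level that the first cell type's own check markers reached in the same gate, since free RNA gives every cell type a low level. In endothelial cells, 7 of the 15 fibroblast-led genes of at least 10 CPM (Adamts10, Adamts5, Adamtsl3, Adamtsl4, Mmp19, Timp1 and Timp2) stood above all 5 fibroblast markers, which reached 0.34% to 3.17% of their fibroblast level. In macrophages 7 of the 15 did so as well (Adamts10, Adamtsl2, Adamtsl4, Adamtsl5, Mmp19, Timp1 and Timp2), where the fibroblast markers reached 0.24% to 0.697%. Of the endothelial-led genes, Adamts9, Mmp15 and Timp3 stood above all endothelial markers in fibroblasts and in pericytes, and Timp4 did in neither. Levels within the marker range, such as those of Mmp2 in macrophages and Timp4 in fibroblasts, are not read as expression. In pericytes the fibroblast markers spread from 0.385% to 28.1%, so a level within that range is not settled there. Mmp2 and Adamts2 lay within it and were called in pericytes by the source test.

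The question of the study is whether the maternal diet left a difference in these hearts. No protease or inhibitor passed the test of diet in any gate (edgeR quasi-likelihood test on UMI sums, 2 against 2 libraries, adjusted p under 0.05 over all genes tested in that gate). This was 0 of 36 tested members of the set in fibroblasts, where 0.0449% of all tested genes were called, 0 of 25 in endothelial cells (0.00823%), 0 of 18 in macrophages (0%), 0 of 14 in pericytes (0.0109%), 0 of 6 in smooth muscle (0.048%) and 0 of 40 over all kept cells (0%). The neutrophil gate had too few cells in 1 control-diet library and was not tested. At an unadjusted p under 0.05 there were 5 of the 36 in fibroblasts (6.38% of all tested genes reached it), 3 of 25 in endothelial cells (4.31%), 2 of 18 in macrophages (3.66%), 4 of 14 in pericytes (5.33%), 0 of 6 in smooth muscle (4.37%) and 1 of 40 over all kept cells (7.05%). The DESeq2 Wald test called 1 of them, Timp4 in endothelial cells, and none in the other gates. The median log2 fold of the tested genes of the set was -0.01 in fibroblasts, 0.09 in endothelial cells, 0.26 in macrophages and -0.03 in pericytes, against medians over all genes tested that round to 0.00 in each of these gates. The 18 macrophage genes include several at background level there.

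**Figure D4:**
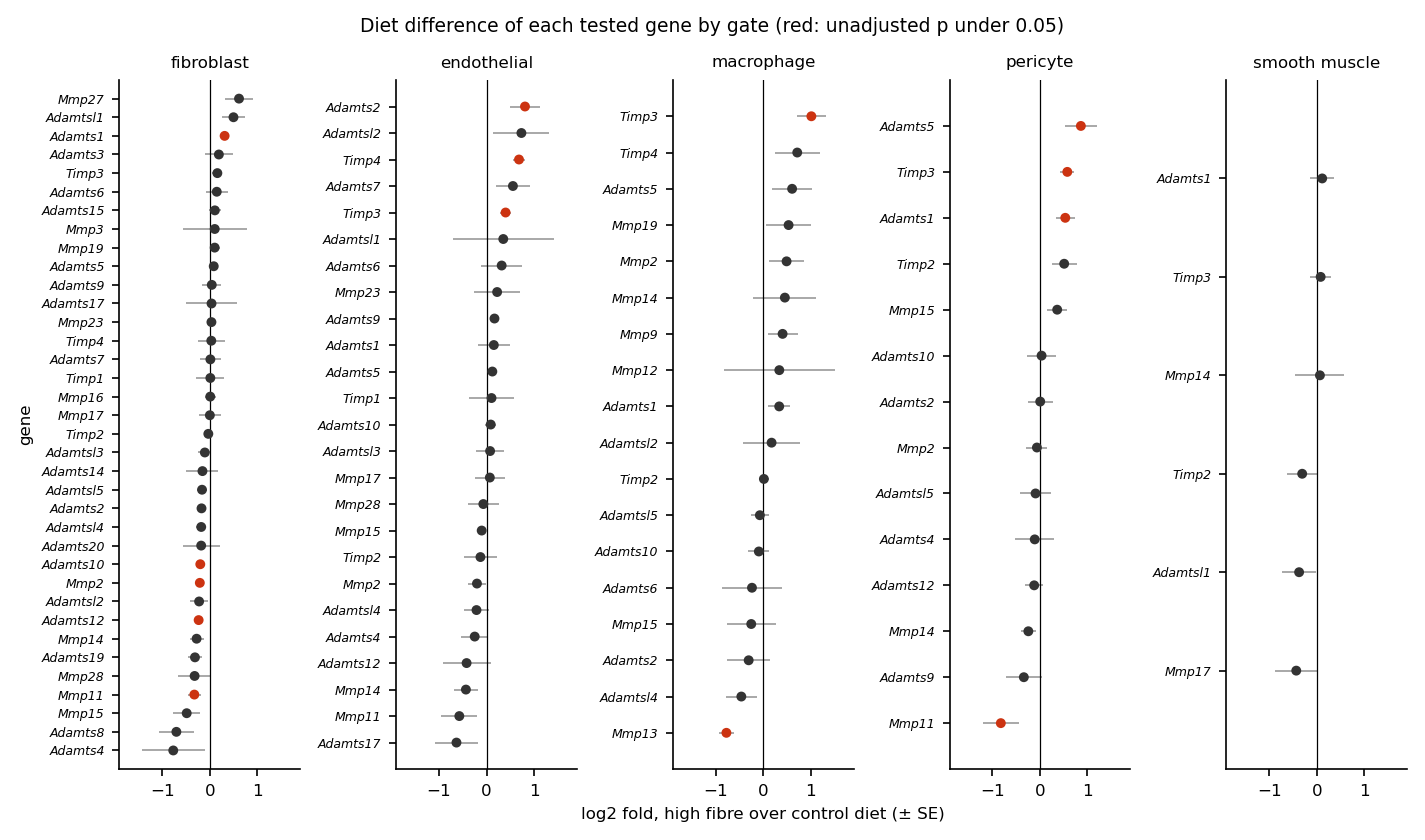
Log2 fold of high fibre over control diet (points, ± SE of the fit) for each tested gene of the set in 5 gates, with genes at an unadjusted p under 0.05 in red. Most points lie within 0.5 of 0, the endothelial Timp4 (0.68) and Timp3 (0.40) have short error bars, and none passed the adjusted threshold.

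Timp4 had the smallest adjusted p of the set. In endothelial cells it averaged 647 ± 98.7 CPM in the high-fibre libraries and 407 ± 27.7 CPM in the control-diet libraries (SD, n = 2 each). Both high-fibre libraries lay above both control-diet libraries, which 14.9% of all tested genes did in this gate. The log2 fold was 0.68 ± 0.13 (SE), with an edgeR adjusted p of 0.324. Over the alternative settings the log2 fold of Timp4 stayed between 0.48 and 0.87, and its adjusted p ranged from 2.29e-07 (edgeR with no filter on low counts) to 0.816, with 0.000572 in DESeq2. Without the second high-fibre library the edgeR adjusted p of Timp4 was 0.0332, with a log2 fold of 0.87. Over all kept cells, where fewer cells of a type and less RNA per cell cannot be told apart, the Timp4 groups overlapped, with 142 and 127 CPM in the high-fibre libraries and 95 and 157 CPM in the control-diet libraries. The second control-diet library held the largest endothelial share, with a sum of 9604 CPM for the endothelial markers over all cells against 5466 to 6204 CPM in the other 3 libraries. Within the endothelial gate those markers summed to 27205 and 28033 CPM in the high-fibre libraries and 24322 and 25962 CPM in the control-diet libraries, and the erythroid markers Hba-a1 and Hbb-bs summed to 5757 and 1354 CPM in the high-fibre libraries and 867 and 1119 CPM in the control-diet libraries. The first high-fibre library stood apart in these erythroid markers and had the highest endothelial Timp4 and Timp3. It also had the lowest Xist and the highest Ddx3y over all kept cells. Without it the log2 fold was 0.48 for Timp4 (edgeR adjusted p 0.816) and 0.27 for Timp3. The part of either marker list, or of the mix of sexes, in the differences was not tested.

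Timp3 leaned the same way in endothelial cells and pericytes. Its endothelial level averaged 834 ± 69.7 CPM in the high-fibre libraries and 637 ± 34.7 CPM in the control-diet libraries (SD, n = 2 each), a log2 fold of 0.40 ± 0.11 (SE) with an edgeR adjusted p of 0.674. With no filter on low counts that adjusted p was 0.0321. In pericytes Timp3 averaged 216 ± 25.6 CPM in the high-fibre libraries and 145 ± 13.5 CPM in the control-diet libraries (SD, n = 2 each), a log2 fold of 0.58 ± 0.15 (SE) with an edgeR adjusted p of 0.376. The groups were apart in both gates, with high fibre above, as in 14.9% of all genes tested in endothelial cells and 15.5% in pericytes. In fibroblasts the groups overlapped (log2 fold 0.16 ± 0.10, SE) and in smooth muscle too (0.08 ± 0.23, SE). Macrophages had 6.55 and 6.74 CPM of Timp3 in the high-fibre libraries and 3.99 and 2.34 CPM in the control-diet libraries, a log2 fold of 1.01 ± 0.30 (SE). That level is within the share that endothelial markers reach in macrophages, and those markers summed in the macrophage gate to 132 and 141 CPM in the high-fibre libraries and 93.5 and 112 CPM in the control-diet libraries. In the pericyte gate the endothelial markers summed to 2300 and 1887 CPM in the high-fibre libraries and 1482 and 1493 CPM in the control-diet libraries, the same side as Timp3. Their part in the Timp3 values was not tested. Timp4 in macrophages was likewise at marker level, with 3.57 and 1.89 CPM in the high-fibre libraries and 1.67 and 1.64 CPM in the control-diet libraries. Timp2 and Timp1 overlapped between diets in their main cells: the log2 fold in fibroblasts was -0.03 ± 0.09 (SE) for Timp2 and 0.01 ± 0.29 (SE) for Timp1, and in macrophages 0.01 ± 0.10 (SE) for Timp2. In pericytes, where its level was within the range of fibroblast markers, Timp2 had 42.6 and 37.3 CPM in the high-fibre libraries and 26.8 and 30.4 CPM in the control-diet libraries, a log2 fold of 0.51 ± 0.26 (SE) with an edgeR adjusted p of 0.951.

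**Figure D5:**
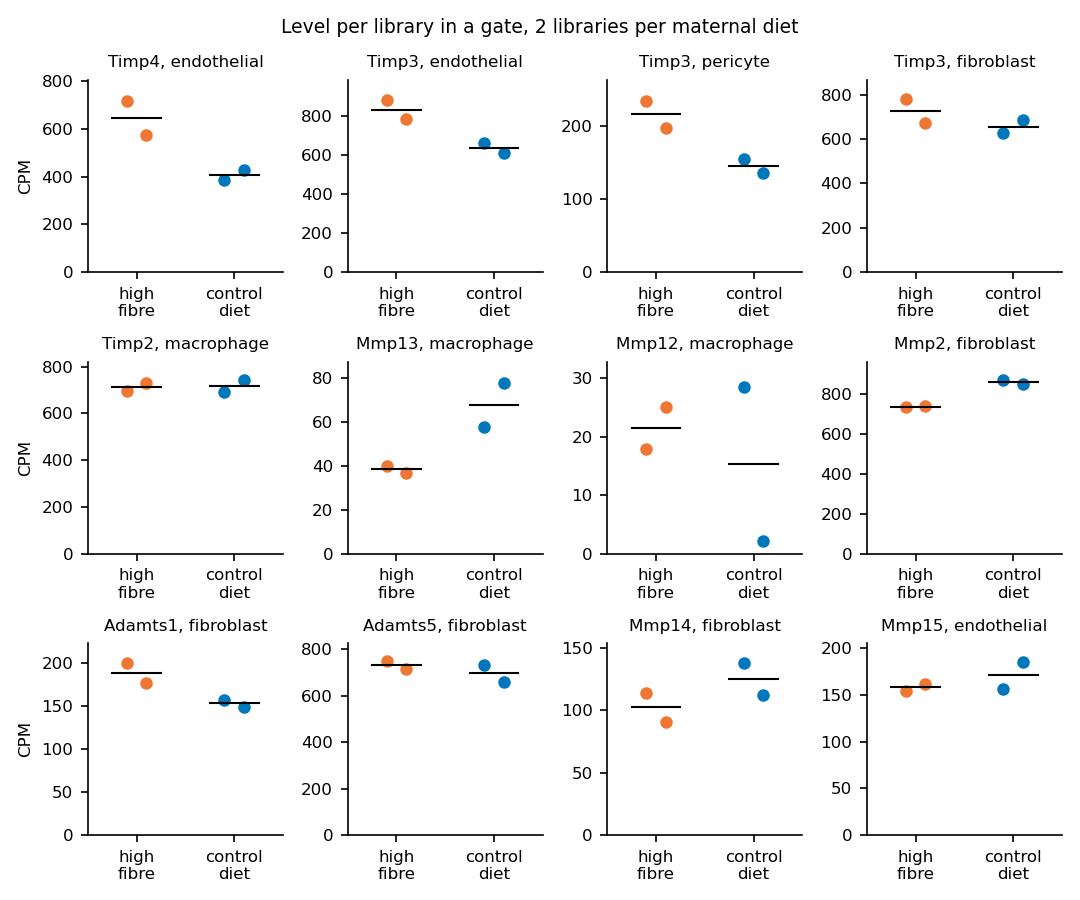
CPM in each library (points) with the mean of the 2 libraries of a diet (line), for 12 pairs of gene and gate, high fibre left of control diet, each axis starting at 0. The diets lie apart for Timp4 and Timp3 in endothelial cells, Timp3 in pericytes, Mmp13 in macrophages and Mmp2 and Adamts1 in fibroblasts, and overlap in the other 6 panels, with Mmp12 down to 2.11 CPM in 1 control-diet library.

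Mmp13 in macrophages leaned the other way. It averaged 38.4 ± 2.35 CPM in the high-fibre libraries and 67.5 ± 14.1 CPM in the control-diet libraries (SD, n = 2 each), a log2 fold of -0.78 ± 0.15 (SE) with an edgeR adjusted p that rounds to 1. The diets did not overlap, as in 16.2% of all genes tested in macrophages with high fibre below. Without the filter on low counts Mmp13 passed, with an adjusted p of 1.7e-05, while its log2 fold stayed between -0.94 and -0.59 over all alternatives. Mmp12, its neighbour, had a log2 fold of 0.34 ± 1.16 (SE) in macrophages, where the control-diet libraries stood at 28.6 and 2.11 CPM. Over all kept cells Mmp12 had 4.3 and 5.72 CPM in the high-fibre libraries and 4.88 and 0.435 CPM in the control-diet libraries, a log2 fold of 0.85 ± 0.83 (SE). Without the first control-diet library that log2 fold was 3.56, with an edgeR adjusted p of 0.0334, against the lone second library, and Mmp12 was then called in macrophages too.

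In fibroblasts, the gate with the most cells behind it, the 5 genes at an unadjusted p under 0.05 moved by little. Adamts1 averaged 189 ± 17 CPM in the high-fibre libraries and 154 ± 5.44 CPM in the control-diet libraries (SD, n = 2 each), a log2 fold of 0.31 ± 0.09 (SE) with an edgeR adjusted p of 0.481. Without the second high-fibre library Adamts1 passed, with an edgeR adjusted p of 0.0307 and a log2 fold of 0.42. In pericytes Adamts1 had 108 and 78 CPM in the high-fibre libraries and 56.4 and 76 CPM in the control-diet libraries, a log2 fold of 0.53 ± 0.20 (SE). Adamts1 is a fast-responding gene, and a list of stress-responsive genes (Fos, Fosb, Jun, Junb, Egr1, Atf3, Ier2, Zfp36, Hspa1a and Hspa1b) summed in fibroblasts to 11344 and 8962 CPM in the high-fibre libraries and 8872 and 8908 CPM in the control-diet libraries. In pericytes they summed to 4321 and 3069 CPM in the high-fibre libraries and 2485 and 2557 CPM in the control-diet libraries, and their part in the Adamts1 values was not tested. Mmp2 averaged 737 ± 1.83 CPM in fibroblasts of the high-fibre libraries and 859.9 ± 13.8 CPM in those of the control-diet libraries (SD, n = 2 each), a log2 fold of -0.21 ± 0.08 (SE) with an edgeR adjusted p of 0.72. The other 3 were also below in high fibre without overlap: Mmp11 (log2 fold -0.32 ± 0.13, SE), Adamts12 (-0.23 ± 0.10, SE) and Adamts10 (-0.20 ± 0.09, SE). High fibre lay below without overlap in 7 of the 36 tested fibroblast genes and above in 4, against 19.7% and 15.7% of all genes tested there. The fibroblast genes with the widest fitted folds were low ones: Adamts4 with 6.77 and 3.49 CPM in the high-fibre libraries and 11.8 and 4.4 CPM in the control-diet libraries, Adamts8 with 1.72 and 1.59 CPM in the high-fibre libraries and 3.53 and 1.47 CPM in the control-diet libraries, and Mmp27. Adamts4 (log2 fold -0.77 ± 0.67, SE) and Adamts8 (-0.70 ± 0.37, SE) overlapped between diets and changed sign without the first control-diet library. Adamts5, Mmp14 and Mmp3 overlapped between diets in fibroblasts.

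In pericytes Adamts5 had 32.5 and 26.5 CPM in the high-fibre libraries and 12 and 22.8 CPM in the control-diet libraries, from 39 and 39 UMIs and from 13 and 15 UMIs. Its log2 fold was 0.86 ± 0.34 (SE), with an edgeR adjusted p of 0.898. This level of Adamts5, 3.28% of that in fibroblasts by mean, is within the range of fibroblast markers in pericytes, which summed to 1102 and 1169 CPM in the high-fibre libraries and 1118 and 994 CPM in the control-diet libraries. Mmp11 in pericytes, whose values by library are given above, had a log2 fold of -0.82 ± 0.38 (SE) with an edgeR adjusted p of 0.924. Mmp11 thus lay below in high fibre in fibroblasts and pericytes alike, without passing the test in either. In endothelial cells Adamts2 had 4.06 and 5.49 CPM in the high-fibre libraries and 2.39 and 3.17 CPM in the control-diet libraries, a level within the share of fibroblast markers found in that gate. Adamtsl2, the other low endothelial gene of wide fitted fold (0.73 ± 0.59, SE), overlapped between diets. In smooth muscle the widest folds were those of Mmp17 (-0.43 ± 0.45, SE), Adamtsl1 (-0.37 ± 0.36, SE) and Timp2 (-0.31 ± 0.32, SE), and the edgeR adjusted p of each of the 6 tested genes rounded to 1. For Timp2 there, the first high-fibre library, which stood apart in its markers, had 57.7 CPM and the second 130.8 CPM, against 139 and 129 CPM in the control-diet libraries. Its log2 fold was -0.048 without the first high-fibre library and -1.31 without the second. That of Mmp17 ranged from -0.87 to -0.29 over the alternatives, and that of Adamtsl1 from -1.28 to 0.057. Over all kept cells the single gene at an unadjusted p under 0.05 was Adamts8, with 0.843 and 0.808 CPM in the high-fibre libraries and 2.05 and 1.27 CPM in the control-diet libraries (log2 fold -0.998 ± 0.33, SE, edgeR adjusted p 0.627). Adamts4, also wide over all kept cells (-0.62 ± 0.41, SE), overlapped between diets and changed sign without the first control-diet library.

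Whether the diet difference of a gene differed between gates was tested directly for the 6 pairs of the 4 larger gates (limma on within-library differences of log2 CPM, a test added after the data were seen). No protease or inhibitor passed in any pair, and no gene did among the 8554 to 11617 tested per pair. The smallest p in the set was that of Mmp15 between fibroblasts and pericytes, with an adjusted p of 0.864. The larger fold of Timp4 or Timp3 in 1 gate is therefore not shown to differ from that in another.

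Other genes of matrix turnover were read from lists of 54 genes. The plasminogen system and protease regulators (18 genes), other matrix proteases (20 genes) and protease substrates (16 genes) had 0 genes called for diet in any gate, with 17, 18 and 15 of them tested in fibroblasts and 9, 8 and 8 above 0. Their median log2 folds in fibroblasts were 0.01, -0.03 and 0.00, against 0.00 over all genes tested. The substrates lay mostly below 0 in endothelial cells, with 2 above and 10 below (median -0.12, against -0.004 over all genes tested). In smooth muscle 1 of the 6 tested lay above and 5 below (median -0.33, against -0.005), with the first high-fibre library, which stood apart in its markers, included. Some substrates were low in endothelial cells, such as Vcan and Lama2 (means of 4.94 and 2.36 CPM, against 349 and 406 CPM in fibroblasts). Others, such as Hspg2 (437 CPM), were not. Among the widest fitted folds in fibroblasts were those of Mcpt4, Bcan and Fbn2. Mcpt4, a mast cell protease, had 2.43 and 1.48 CPM in fibroblasts of the high-fibre libraries and 0.2 and 0 CPM in those of the control-diet libraries (edgeR adjusted p 0.113). Fbn2, a fibrillin, had 14.3 and 7.21 CPM in fibroblasts of the high-fibre libraries and 6.98 and 6.91 CPM in those of the control-diet libraries, and Bcan, a proteoglycan, overlapped between diets.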

How the data were processed

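Single-cell 3′ libraries were aligned and counted with Cell Ranger 3.1.0 on mm10 (GRCm38), per the submitters' processing notes; the strand setting is not given in the sources used here. The files are UMI counts per gene and barcode, deposited by the authors without normalization. Barcodes under 500 UMIs, under 250 genes or over 20% mitochondrial UMIs were dropped, and doublets were removed by simulated-doublet neighbours (0.8% per 1000 barcodes, scikit-learn 1.9.0), which took 2.16% to 6.56% of barcodes. Gates used raw UMIs: Col1a1 and Dcn at least 1 each and 8 in sum, Cdh5 and Pecam1 or Kcnj8 and Vtn at least 1 each and 3 in sum, C1qa or Myh11 at least 3, S100a8 at least 5. Cells in several gates were set aside. Counts were summed per library and gate of at least 20 cells, filtered at a minimum count of 10 and tested with edgeR 4.0.16 (R 4.3.3), after tests on simulated data. Source fits had the library as a block, and diet fits had no block. DESeq2 1.42.0, limma 3.58.1, other scalings, filters, doublet and gate settings and each library left out were alternatives. Named for diet were genes called or at an unadjusted p under 0.05, and the 3 of widest fold per gate; levels are per library from 10 CPM in the leading gate. Members and lists were chosen with earlier results of these data known. A gene of the other matrix turnover lists that its naming rule picks is not reported here.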

Additional observations from a re-analysis of the deposited data

How the results depend on the processing

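The number of proteases and inhibitors called for diet was 0 in each gate and over all kept cells, and of the recomputed counts for diet and source 8 moved by more than 1.5 times and 126 did not. In endothelial cells it was 1 with DESeq2 (Timp4) and 3 with no filter on low counts (Adamts8, Timp3 and Timp4), and in macrophages it was 1 with no filter (Mmp13). With single libraries left out it ranged from 0 to 1 in fibroblasts, endothelial cells and macrophages and from 0 to 2 over all kept cells (Mmp12 and Mmp15), and was 0 in pericytes and smooth muscle; such fits leave 1 library in a diet, assumed to vary like the others. The smooth muscle source count ranged from 6 to 10 with single libraries left out. Without the first control-diet library the log2 fold of 4 results changed sign; the cause was not tested. With single libraries left out, the log2 fold of Adamts4 ranged from -1.32 to 0.23 in fibroblasts and from -1.06 to 0.10 over all kept cells, that of Adamts8 in fibroblasts from -1.08 to 0.19, and that of Adamtsl1 in smooth muscle from -1.28 to 0.057. With the replicate block, which treats equal repeat numbers as pairs, 0 proteases or inhibitors were called in every gate; the numbers are shared labels only, and same-numbered libraries correlated at 0.082 in fibroblasts, -0.059 in endothelial cells, 0.211 in macrophages, 0.091 in pericytes, -0.021 in smooth muscle and 0.248 over all kept cells.

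Calls over all genes depended more on the setting. In fibroblasts 6 genes were called, against 39 with DESeq2, 249 with no filter, 101 with the replicate block, 1 with doublets kept, 3 from 1000 UMIs per cell, 2 with gate minimums doubled, 3 without the shallower copies of shared barcodes, and 6 to 327 with a library left out. Endothelial cells had 1, against 3 with DESeq2, 106 with no filter, 2 with the block and 0 to 36 with a library left out. Macrophages had 0, against 59 with no filter, 69 with the block and 0 to 14 with a library left out. Pericytes had 1, against 16 with no filter, 10 with the block, 3 with doublets kept, 0 with gate minimums doubled and 2 to 29 with a library left out. Smooth muscle had 2, against 0 with DESeq2, 7 with no filter, 17 with the block, 0 with doublets kept and 1 to 38 with a library left out. Over all kept cells there were 0, against 78 with DESeq2, 48 with no filter and 0 to 221 with a library left out. Smooth muscle was not run from 1000 UMIs per cell, with gate minimums doubled or without shallower copies, since a library then had under 20 cells. With 2 libraries per diet, and few smooth muscle and neutrophil cells, small differences are not detectable.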
